A study of Mus musculus with 4 samples.

Results

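To describe active regulatory chromatin around the genes through which liver sinusoidal endothelial cells (LSECs) send and receive Wnt signals, H3K27ac peaks were examined at 10 genes out of 21887 protein-coding genes on the mouse chromosomes. The 10 genes were listed by name, with earlier results of these data known. They comprise the secreted ligands *Wnt2*, *Wnt9b*, and *Rspo3*, the ligand carrier *Wls*, the receptors *Fzd4* and *Fzd6*, the co-receptors *Lrp5* and *Lrp6*, the Dickkopf-family gene *Dkk3*, and the intracellular feedback gene *Axin2*. H3K27ac, acetylation of a lysine of histone H3, marks promoters and enhancers in use. The data are 2 lists of peaks from isolated mouse LSECs, replicates 2 and 3, each from 1 ChIP-Seq library. Both libraries belong to 1 condition, so no contrast between conditions was possible. The labels give no strain, genotype, age, or treatment. The methods of the study name mice of several genotypes as LSEC donors, with *Col4a1* fl/wt alone, with *Col4a1* fl/wt and *Cdh5* CreERT2 together, or with *dCas9-KRAB* and *Cdh5* CreERT2, and do not tie either library to one of them. *Cdh5* CreERT2 is an inducible Cre driven in endothelial cells. By the same methods, LSECs were purified from perfused, protease-digested liver with beads against CD146, which also captures endothelial cells of other liver vessels. The isolation methods then describe culture before harvest, and whether the cells of these libraries were cultured is not stated. For each gene, all peaks in the gene body and 50 kb on each side were taken, and peaks of the libraries that overlapped by at least 1 bp were merged into 1 region. A region was assigned to the gene's own end (within 1 kb of either end of its body), to the end of another protein-coding gene, or to the distal class (more than 1 kb from every such end).

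Wnt ligands are lipid-modified secreted proteins that bind a Frizzled receptor together with LRP5 or LRP6 on the receiving cell, which protects β-catenin from destruction and lets it activate target genes with TCF/LEF factors. R-spondins strengthen the signal by keeping Frizzled receptors on the cell surface. In the liver, endothelial cells of the central vein and the sinusoids are known sources of Wnt2, Wnt9b, and R-spondin 3, which sustain the β-catenin program of the neighboring pericentral hepatocytes.

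RefSeq gives a start site in its promoter set for 5 of the 10 genes (GRCm38.p6, the build of the peak lists). The 250 bases before that site are shown for 4 of them, because they differ in acetylation. Replicate 2 and replicate 3 both had a peak over the windows of *Wnt2* and *Fzd4*, replicate 3 alone had one over that of *Axin2*, and neither had one over that of *Wnt9b*. Sequences run 5′ to 3′ toward the gene, and capitals mark the GC box GGGCGG on either strand.
*Wnt2*, chr6:18030446-18030695, minus strand: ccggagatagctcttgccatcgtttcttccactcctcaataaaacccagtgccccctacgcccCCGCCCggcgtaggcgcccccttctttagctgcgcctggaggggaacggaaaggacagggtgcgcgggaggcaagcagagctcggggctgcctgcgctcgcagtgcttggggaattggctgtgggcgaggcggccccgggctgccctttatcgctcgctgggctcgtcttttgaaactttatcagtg
*Fzd4*, chr7:89404116-89404365, plus strand: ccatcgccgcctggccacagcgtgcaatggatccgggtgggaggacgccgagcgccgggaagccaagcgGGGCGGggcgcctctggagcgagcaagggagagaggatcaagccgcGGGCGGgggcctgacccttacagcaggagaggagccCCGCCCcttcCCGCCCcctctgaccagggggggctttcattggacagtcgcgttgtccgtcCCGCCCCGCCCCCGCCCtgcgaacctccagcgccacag
*Wnt9b*, chr11:103749822-103750071, minus strand: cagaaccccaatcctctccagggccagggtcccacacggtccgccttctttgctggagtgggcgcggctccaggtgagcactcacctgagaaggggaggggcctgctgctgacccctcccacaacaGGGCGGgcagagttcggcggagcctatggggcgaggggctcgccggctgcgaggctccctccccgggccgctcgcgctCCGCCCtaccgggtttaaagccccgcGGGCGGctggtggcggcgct
*Axin2*, chr11:108920099-108920348, plus strand: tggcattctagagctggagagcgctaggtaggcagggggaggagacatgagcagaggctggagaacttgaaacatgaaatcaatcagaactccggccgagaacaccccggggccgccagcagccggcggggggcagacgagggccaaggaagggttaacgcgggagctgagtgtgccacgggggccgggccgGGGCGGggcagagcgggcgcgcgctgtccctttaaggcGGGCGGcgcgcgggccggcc

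The GC box, a sequence bound by SP and KLF factors, was found in all 5 windows, *Wls* included, and in 32.7% of 32851 RefSeq promoter windows of the same length. *Fzd4* had 7 matches, and the 3 nearest its start overlapped or adjoined each other. *Wnt9b* had 3, *Axin2* 2, and *Wnt2* and *Wls* 1 each. None of the 5 windows held any of the other 5 motifs searched, each as 1 exact string, on either strand. These were the TCF/LEF core TCAAAG, present in 13.8% of all windows, and the ETS core GGAAGT, present in 19.7%. The GATA-type core AGATAA was present in 9.99% of all windows, the E-box CACGTG in 6.02%, and the TATA-type element TATAAA in 12.4%. Variants of these strings were not searched. The *Wnt2* window, for example, holds TGATAA on the other strand near its start site, so absence of the exact string does not show absence of a GATA-type site. The GC content was 63.6% at *Wnt2*, 72.8% at *Fzd4*, 72.0% at *Wnt9b*, 69.2% at *Axin2*, and 58.0% at *Wls*, all above the median of 52.4%. *Wls* had 8 CpG dinucleotides in its window and the other 4 genes had 20 to 25, against a median of 6. The promoter without a peak in either library therefore had base composition like that of the promoters with one.

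The replicate 2 list held 26975 peaks and the replicate 3 list 64498. Their fold enrichments are the ratios of signal to background from the authors' peak caller, with medians of 9.76 and 8.89 over all peaks, and depend on each library's own background, so ratios between the lists are descriptions. Read depth is unknown. As a check of cell type, 5 of 8 endothelial markers (*Lyve1*, *Stab1*, *Cdh5*, *Pecam1*, and *Kdr*) had a region of both libraries at a gene end. The other 3 (*Stab2*, *Mrc1*, and *Clec4g*) had a replicate 3 peak only. The share over all protein-coding genes was 44.1%. *Cdh5*, *Pecam1*, and *Kdr* are general endothelial genes, so they do not separate LSECs from endothelial cells of other liver vessels. Of the markers of other cells, 1 of 6 for hepatocytes (*Glul*) had a region of both libraries, and 0 of 6 each for hepatic stellate cells, Kupffer cells, and cholangiocytes. In these 4 lists, *Apoa1*, *Col1a1*, and *Epcam* had a replicate 3 peak only. The part of other cells in the peaks described here was not tested.

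Over the 10 genes there were 41 replicate 2 peaks and 111 replicate 3 peaks, which merged into 110 regions. Of these, 37 had peaks of both libraries, 73 had a replicate 3 peak only, and 0 had a replicate 2 peak only. At their own ends, 4 of 10 genes (*Wnt2*, *Fzd4*, *Lrp6*, and *Wls*) had a region of both libraries, 3 (*Rspo3*, *Fzd6*, and *Lrp5*) had a replicate 3 peak only, and 3 (*Wnt9b*, *Dkk3*, and *Axin2*) had none. Among all protein-coding genes, 44.1% had a region of both libraries at an own end, 44.1% had a replicate 2 peak there, and 53.9% a replicate 3 peak, beside 4, 4, and 7 of the 10 genes. The counts of both libraries and of replicate 2 were thus near the background. Distal regions of both libraries occurred at 8 of 10 genes, against 51.1% of protein-coding genes, a comparison not matched for window length. They numbered 30, of which 11 lay in the gene bodies and 8 inside the body of a neighboring gene. Their median per gene was 1.5, against 1 over all protein-coding genes (interquartile range, 0 to 2). When each peak had to cover 50% of the other, 1 gene had a region of both libraries at its own end, and 14 distal regions were counted. Without replicate 2, the counts were 7 genes and 98 distal regions.

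**Figure D1:**
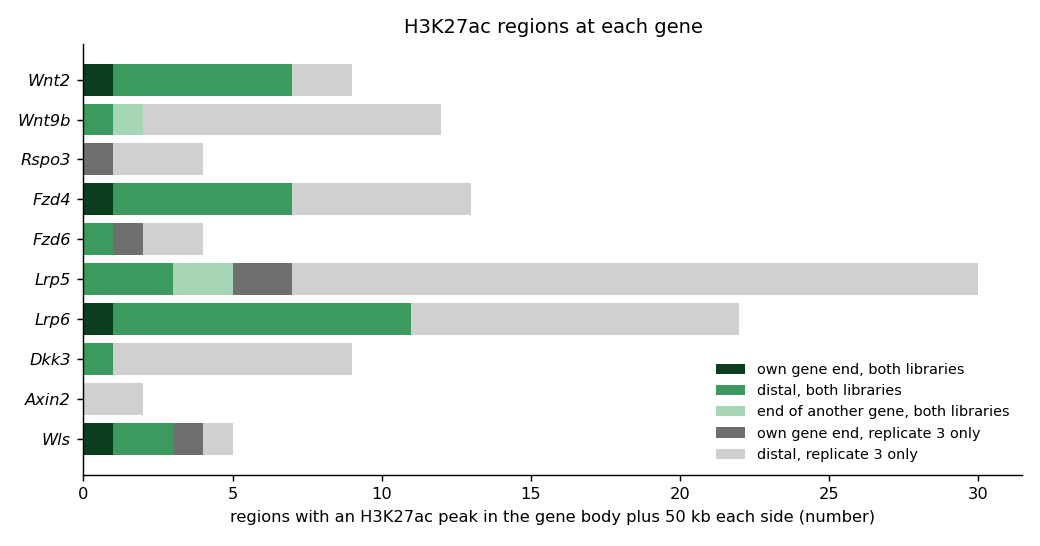
Number of H3K27ac regions (x axis) in the body of each gene and 50 kb on each side, by class and by the libraries with a peak. *Lrp6*, *Wnt2*, and *Fzd4* hold 10, 6, and 6 distal regions of both libraries, whereas *Rspo3* and *Axin2* hold none.

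The distal regions were spread unevenly over the 10 genes. *Lrp6* had 10, *Wnt2* and *Fzd4* 6 each, *Lrp5* 3, *Wls* 2, and *Wnt9b*, *Fzd6*, and *Dkk3* 1 each, while *Rspo3* and *Axin2* had 0. Of the 6 at *Wnt2*, 1 covered its RefSeq start, and a pair beyond its 3′ end nearly adjoined but was counted as separate regions. In the order of all protein-coding genes by this number, with ties given their mean rank, *Lrp6* was at the 99.2nd percentile and *Wnt2* and *Fzd4* were at the 96.4th, whereas *Rspo3* and *Axin2* were among the genes with no such region. The body of *Fzd4* is 5.75 kb long and that of *Lrp6* 120 kb, so their windows differ in length. Counted per 10 kb of window, as an alternative, *Fzd4* was at the 98.9th percentile, *Lrp6* at the 97.1st, and *Wnt2* at the 96.3rd. Without replicate 2, counting all distal replicate 3 peaks, *Wnt2* had 8 and was at the 80.7th percentile, *Fzd4* had 12 at the 91.5th, and *Lrp6* had 21 at the 98.1st. The place of *Wnt2* in the order thus rested on replicate 2.

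**Figure D2:**
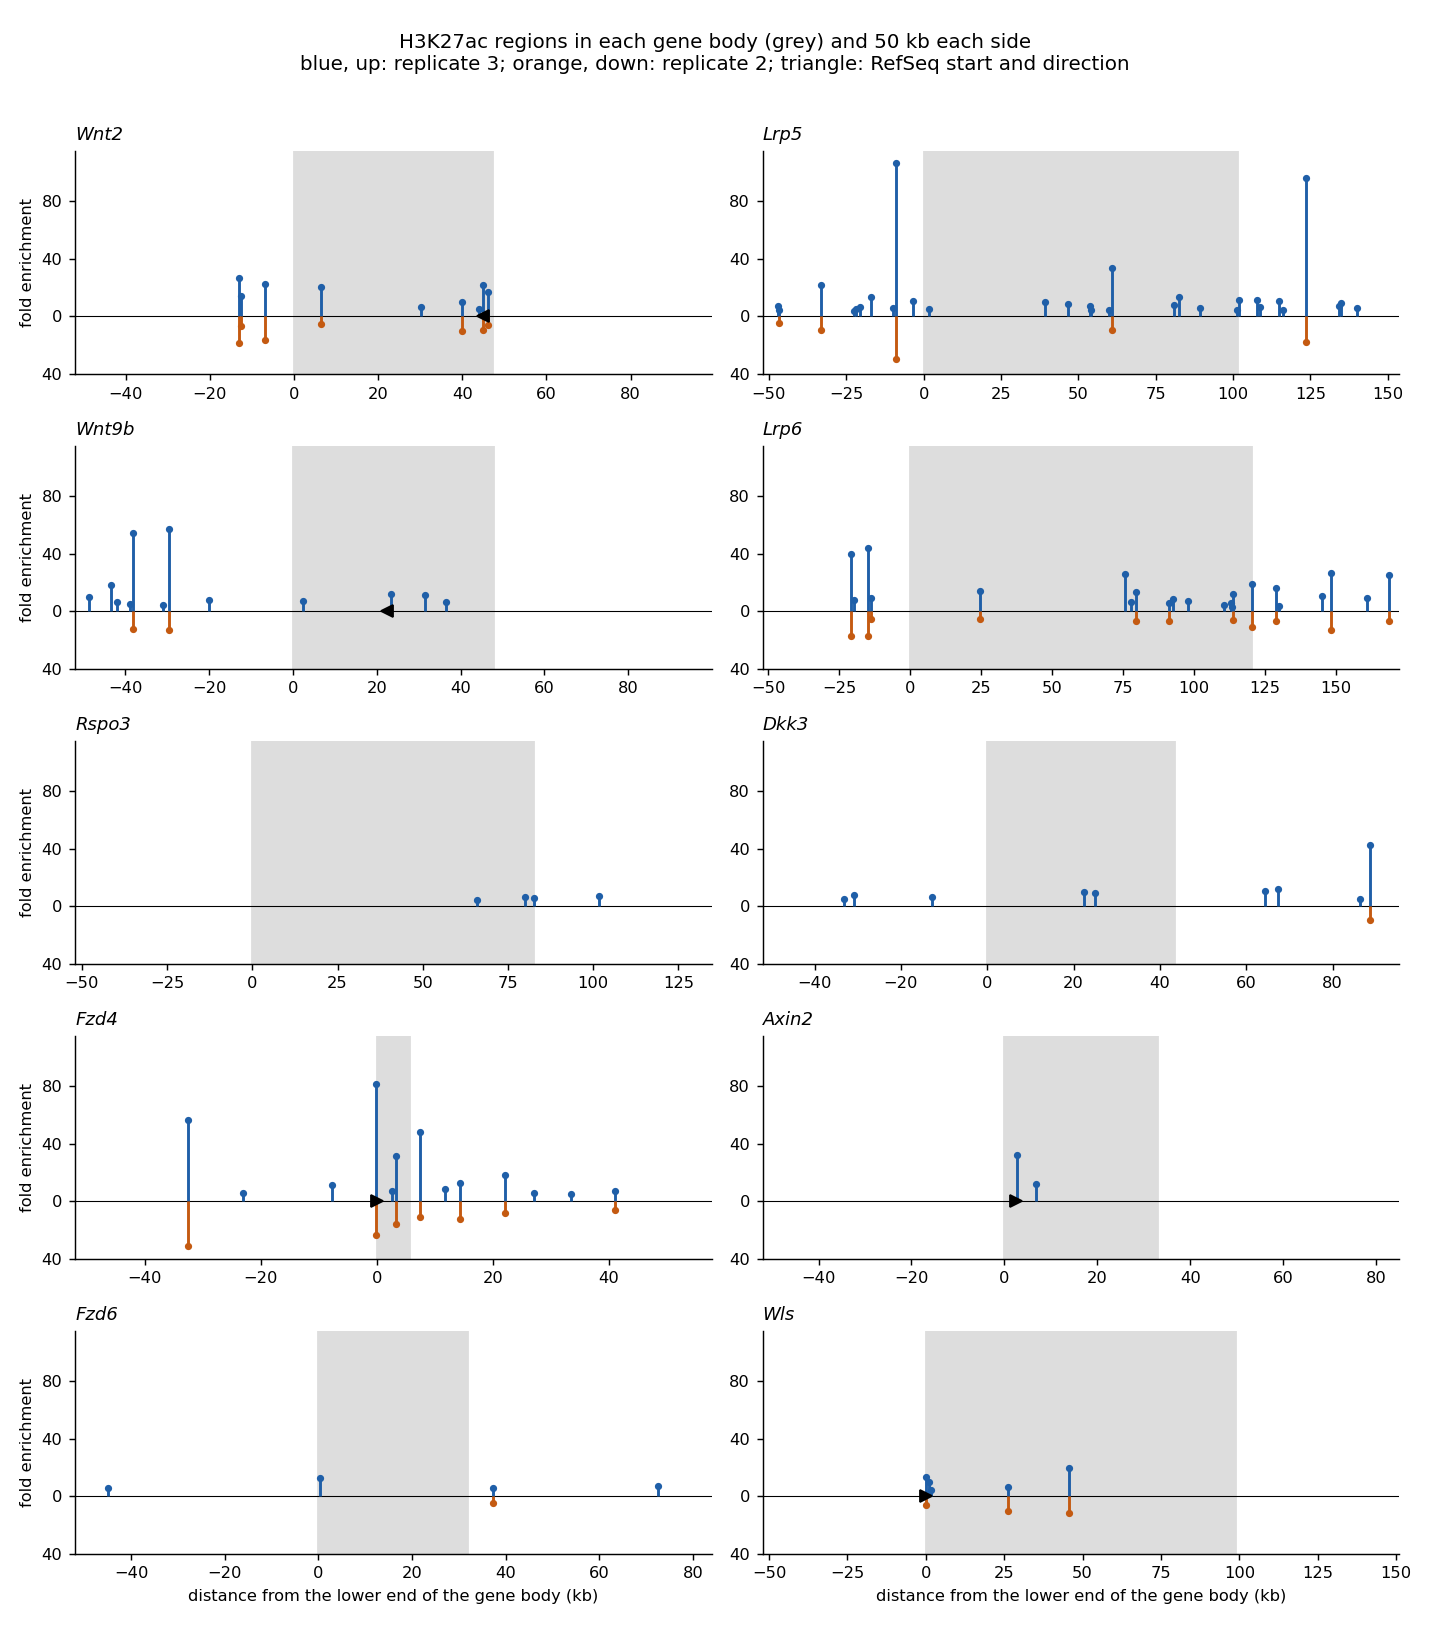
Fold enrichment (y axis) of each region against its distance in kb from the lower end of the gene body (x axis), for replicate 3 (blue, upward) and replicate 2 (orange, downward), with gene bodies in gray and RefSeq starts as triangles. Regions of both libraries lie on either side of *Fzd4* and *Lrp6*, outside *Wnt2* they lie beyond its 3′ end only, and the tall peaks beside *Lrp5* and *Wnt9b* lie at or in neighboring genes.

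*Wnt2*, which encodes a ligand of the canonical pathway, had 9 replicate 3 peaks, of which 7 overlapped a replicate 2 peak. The region over its RefSeq start, at 18029846 to 18030882 on chromosome 6, reached 21.5-fold enrichment in replicate 3 and 9.49 in replicate 2. It falls in the distal class because the RefSeq gene body extends past that start. A second region, 767 bp upstream of that start and within 1 kb of the outer end of the body, had 17.2 and 6.10. Both libraries thus marked the start of *Wnt2*, at the 76.5th and 71.3rd percentiles of the replicate 3 list. In the replicate 2 list the same regions were at the 48.9th and 17.7th percentiles. Their fold enrichments were below the medians of gene-end regions of both libraries, 43.0 in replicate 3 and 14.9 in replicate 2.

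Farther from the start of *Wnt2*, both libraries had a region 4687 bp downstream (9.77 in replicate 3 and 10.2 in replicate 2) and another in the body 38242 bp downstream (20.4 and 5.49). Beyond the 3′ end lay a group of 3 regions between 17972000 and 17978854, which no other protein-coding gene body covers. Of the 3, the one at 17972727 to 17973056 nearly adjoined its neighbor and had 13.9 in replicate 3 and 6.78 in replicate 2. The strongest of these, at 17972000 to 17972718, had 26.8 in replicate 3 and 18.3 in replicate 2, and the one at 17978397 to 17978854 had 22.5 and 16.4. These 2 regions beyond the gene had higher fold enrichments than the start of *Wnt2* in both libraries. In replicate 2 they were at the 79.9th and 75.6th percentiles, against the 48.9th for the region over the start.

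*Wnt9b*, a Wnt ligand gene next to *Wnt3*, had 12 replicate 3 peaks in its window, of which 2 overlapped a replicate 2 peak, and both of those lay in or at the end of *Gosr2*. The region at the end of *Gosr2*, which encodes a protein of vesicle transport, had 57.3 in replicate 3 and 13.3 in replicate 2. The region inside *Gosr2* had 54.4 and 12.1. Inside the *Wnt9b* body there were 4 regions, all of replicate 3 only. The strongest, at 103750346 to 103751051 on chromosome 11, began 525 bp upstream of the RefSeq start and had a fold enrichment of 12.4. The other 3 had 11.2, 7.16, and 6.51. Of all replicate 3 peaks within 10% of 12.4, 38.1% overlapped a replicate 2 peak, so a missing replicate 2 peak was common at this strength.

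*Rspo3*, which encodes R-spondin 3, had the weakest signal of the 10 genes by its strongest peak. Its window held 4 replicate 3 peaks and 0 replicate 2 peaks. The peak at the gene end, at 29535739 to 29535980 on chromosome 10, had a fold enrichment of 5.86. The other 3 peaks had 4.23, 6.84, and 7.49, the last of them 18.7 kb outside the body. All 4 lay below the median of the replicate 3 list, and among replicate 3 peaks within 10% of their values, between 1.78% and 9.59% overlapped a replicate 2 peak.

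*Wls*, whose product carries Wnt proteins to the cell surface, had a region of both libraries directly over its RefSeq start, at 159839540 to 159839952 on chromosome 3. Its fold enrichment was 13.3 (replicate 3) and 6.10 (replicate 2). A replicate 3 peak of 10.1 followed 558 bp downstream. In the body, both libraries had a region 26055 bp downstream, with 6.49 in replicate 3 and 10.2 in replicate 2, and another 45520 bp downstream, with 19.5 and 11.5. The first of these had the lowest ratio of replicate 3 to replicate 2 of the 37 regions, 0.639.

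*Fzd4* encodes a Frizzled receptor that also binds Norrin and is known for its role in retinal vessels. Its start carried the strongest own-end region of the 10 genes, at 89402977 to 89405322 on chromosome 7, where fold enrichment was 81.7 in replicate 3 and 23.2 in replicate 2. These values were at the 97.3rd and 88.4th percentiles of the lists. The region was 2346 bp wide, against a median of 961 bp for regions of both libraries at gene ends, and the summits of the 2 libraries fell on the same base. *Tmem135* also ends within 1 kb of this region and overlaps the first bases of *Fzd4*, so the acetylation of the 2 genes' ends cannot be told apart.

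Around *Fzd4*, both libraries had a region 2842 bp downstream of the start in the body (31.6 in replicate 3 and 15.6 in replicate 2) and 4 regions beyond the 3′ end of the body, up to 35.1 kb from it. The nearest of the 4, 1.11 kb past the body, had 48.2 and 10.7. The others had 12.9 and 12.2, 18.4 and 8.11, and 7.08 and 6.10. On the other side, 31584 bp upstream and inside *Tmem135*, a region 2014 bp wide had 56.6 and 31.2, the highest replicate 2 value of all 37 regions. *Fzd4* thus had acetylation of both libraries over its start, in its body, and on both sides.

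*Fzd6*, a Frizzled receptor gene known for planar cell polarity, had a replicate 3 peak of 13.0 over 1 end of its body, at 39005968 to 39006880 on chromosome 15, and no replicate 2 peak there. Of replicate 3 peaks of like fold enrichment (within 10%), 40.8% overlapped a replicate 2 peak. Its only region of both libraries lay 5.13 kb outside the body, with 5.61 in replicate 3 and 4.74 in replicate 2, at the 25.7th and 3.12th percentiles of the lists. With a q-value of 1e-05 or less this region was lost.

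*Lrp6*, a co-receptor gene, had 22 replicate 3 peaks, of which 11 overlapped a replicate 2 peak. The region over 1 end of its body, at 134566341 to 134567754 on chromosome 6, was enriched 19.3-fold in replicate 3 and 10.8-fold in replicate 2. Of its 10 distal regions of both libraries, 4 lay in the body, with 5.49 to 14.5 in replicate 3 and 5.27 to 6.78 in replicate 2. The strongest were outside it, inside the body of *Bcl2l14*, with 44.0 and 16.9 at 134431194 to 134432010, and with 40.1 and 17.1 at 134425197 to 134426118. A further region inside *Bcl2l14* had 9.32 and 5.49. On the opposite side, regions 8.15 kb, 27.7 kb, and 47.8 kb from the body had 16.3, 26.5, and 25.1 in replicate 3 and 6.71, 12.8, and 6.64 in replicate 2. The one 47.8 kb away lay inside the body of *Mansc1*. As at *Wnt2*, several regions outside the gene had higher fold enrichments than its end in replicate 3. A replicate 3 peak in the body had 25.7 and no replicate 2 peak, although 92.5% of replicate 3 peaks within 10% of that value had one.

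*Lrp5*, the other co-receptor gene, had 30 replicate 3 peaks, the most of the 10 genes, but 5 of them overlapped a replicate 2 peak. The strongest regions in its window lay at ends of other genes, with 106 in replicate 3 and 29.5 in replicate 2 at *Ppp6r3* and 96.1 and 18.0 at 1810055G02Rik. Its own ends had 2 replicate 3 peaks, of 11.4 and 4.56, and no replicate 2 peak. In the body, 1 region of both libraries, at 3645095 to 3646335 on chromosome 19, had 33.5 and 9.19, beside 9 distal regions of replicate 3 only. The other 2 distal regions of both libraries were inside *Ppp6r3*. Counted in replicate 3 alone, *Lrp5* was at the 99.0th percentile of protein-coding genes by its number of distal regions, against the 84.4th for regions of both libraries. Per 10 kb of its long window, regions of both libraries placed it at the 74.0th.

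*Dkk3*, a divergent member of the Dickkopf family of secreted Wnt regulators, had no peak of either library at its own ends. Its body held 2 replicate 3 peaks, of 10.1 and 9.44. Its only region of both libraries lay 45.03 kb outside the body, at 112204510 to 112205076 on chromosome 7, with 43.0 in replicate 3 and 9.17 in replicate 2, and no protein-coding gene body covers it.

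*Axin2*, a widely used Wnt/β-catenin target gene whose product scaffolds the destruction complex, had 2 replicate 3 peaks and 0 replicate 2 peaks within 50 kb. The stronger, at 108920185 to 108920829 on chromosome 11, covered the RefSeq start with a fold enrichment of 31.9, at the 84.2nd percentile of the list. It is in the distal class because the gene body begins more than 1 kb before that start. Of replicate 3 peaks within 10% of 31.9, 98.2% overlapped a replicate 2 peak. The start of *Axin2* thus belonged to the small share of peaks of this strength without one. The second peak, 4006 bp downstream, had 12.4.

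By the RefSeq start in place of the gene ends, 3 of the 5 genes with a start (*Wnt2*, *Fzd4*, and *Wls*) had a region of both libraries within 1 kb, against 45.9% of 17492 protein-coding genes in the promoter set. *Wnt9b* and *Axin2* had a replicate 3 peak there. All 5 starts thus had a replicate 3 peak within 1 kb, against 54.4% of the genes in the promoter set, whereas by the ends of the gene bodies *Wnt9b* and *Axin2* had none.

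Of the 111 replicate 3 peaks at the 10 genes, 38 (34.2%) overlapped a replicate 2 peak (95% Wilson interval of the count, 26.1% to 43.5%), against 37.7% of all replicate 3 peaks. The interval treats the peaks as separate draws, although they cluster in 10 windows, so it is a description and not a test of a difference. Overlap was more frequent at higher fold enrichment in the whole list, from 6.66% of peaks up to 10 to 98.8% of those above 25. At the 10 genes, 8 of 62 peaks up to 10 and 15 of 17 peaks above 25 overlapped. The 2 exceptions above 25 were those at *Lrp6* and *Axin2*.

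**Figure D3:**
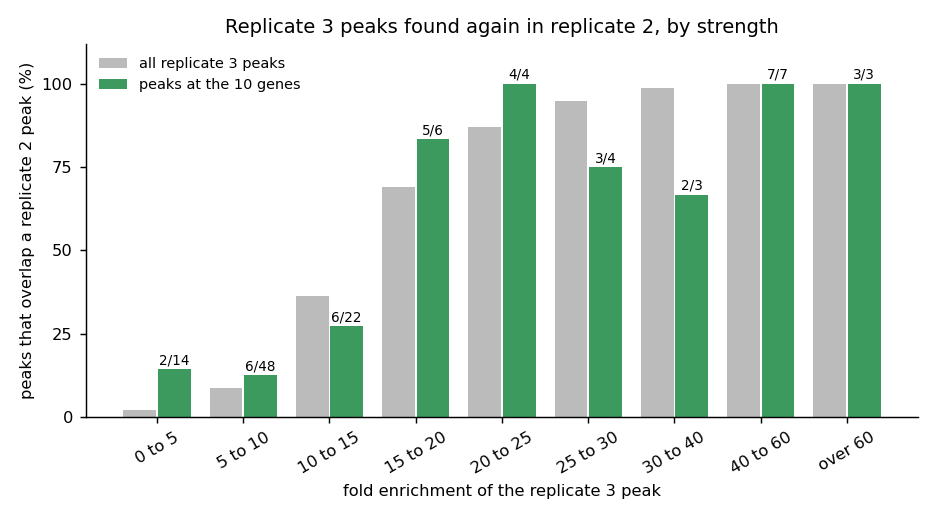
Percentage of replicate 3 peaks that overlap a replicate 2 peak (y axis) by fold enrichment in replicate 3 (x axis), for all peaks (gray) and for those at the 10 genes (green, with counts above the bars). Between 25 and 40, 5 of 7 peaks at the 10 genes overlapped.

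Regions of both libraries were chosen by the overlap of their peaks, which by itself keeps summits close. The distances between summits therefore describe these regions and are no separate evidence that the libraries agree. The summits of the strongest peaks lay a median of 33 bp apart in the 37 regions (30 bp over all 24199 regions of both libraries) and within 100 bp in 32 of 37 (86.5%, against 89.6%). The largest distance, 174 bp, was at *Wnt2*. Replicate 2 peaks were shorter, with a median covered length of 401 bp per region against 683 bp in replicate 3, and 1 of 37 regions was longer in replicate 2. The fold enrichment was higher in replicate 3 in 33 of 37 regions, against 97.1% of all regions of both libraries, with a median ratio of 2.18 (2.47 over all regions). The 4 exceptions were at *Wnt2*, *Lrp5*, *Lrp6*, and *Wls*. Across the 37 regions, which share 2 libraries and partly neighbor each other, Spearman's rho between the fold enrichments was 0.744, and over all regions it was 0.843.

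**Figure D4:**
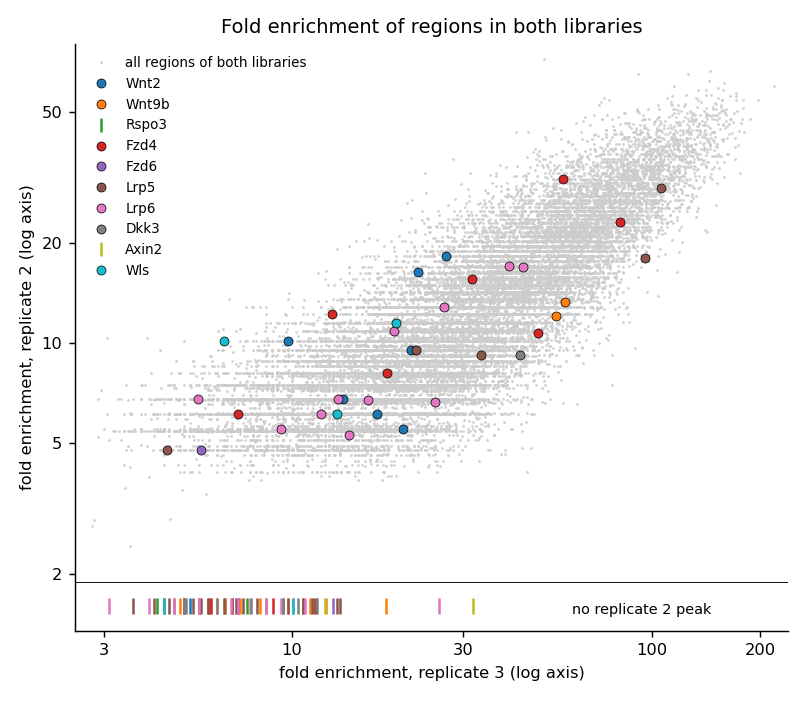
Fold enrichment in replicate 2 (y axis, log scale) against replicate 3 (x axis, log scale) for all regions of both libraries (gray) and those at the 10 genes (colored), with regions of replicate 3 only as ticks below the line. The region at 106 in replicate 3, in the window of *Lrp5*, lies at the end of *Ppp6r3*. The tick of *Axin2* at 31.9 is the farthest to the right among those without a replicate 2 peak.

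To place the 10 genes in their pathway, 87 Wnt pathway genes (77 of them other than the 10) were grouped by role. At an own end, 33 of 87 (37.9%) had a region of both libraries, against 44.1% of all protein-coding genes. The share differed by role, with 0 of 4 R-spondin genes and 11 of 14 cytoplasmic components among the extremes. Of the 19 Wnt ligand genes, *Wnt2* and *Wnt9a* had a region of both libraries (17.2 in replicate 3 and 6.10 in replicate 2 at *Wnt2*, 20.2 and 5.42 at *Wnt9a*), *Wnt2b* had a replicate 3 peak only, and 16 had none. Among these 16, *Wnt5b*, *Wnt9b*, and *Wnt11* had a replicate 3 peak within 1 kb of their RefSeq start, which the ends of the body missed. For some of the 16 no RefSeq start was given. *Wnt2* also had the most distal regions of both libraries of the 19, with 6, of which 1 lay at its RefSeq start. *Wnt5b*, *Wnt6*, *Wnt7b*, and *Wnt10a* followed with 3 each. Both genes that modify or carry the ligands had a region of both libraries at an own end. *Porcn*, the acyltransferase of Wnt proteins, had 42.0 there in replicate 3 and *Wls* had 13.3.

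**Figure D5:**
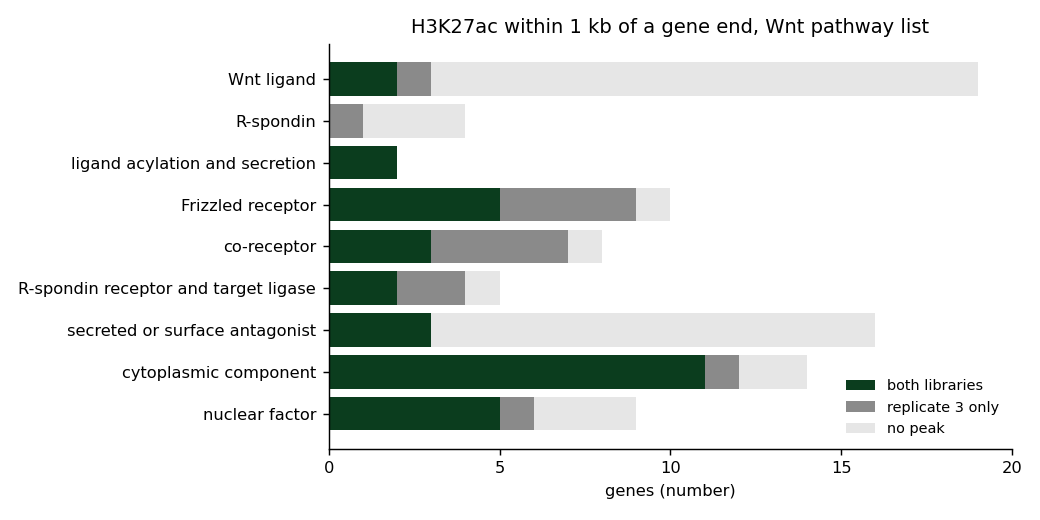
Number of genes (x axis) of each role in the Wnt pathway list with an H3K27ac region of both libraries, a replicate 3 peak only, or no peak within 1 kb of an own gene end. Ligands and antagonists mostly have no peak (16 of 19 and 13 of 16), and 11 of 14 cytoplasmic components have a region of both libraries.

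Of the 10 Frizzled genes, 5 had a region of both libraries at an own end, near the 44.1% of all protein-coding genes. These were *Fzd5* (95.7 in replicate 3 and 33.6 in replicate 2), *Fzd4* (81.7 and 23.2), *Fzd7* (69.6 and 28.7), *Fzd8*, and *Fzd1*. *Fzd4* ranked below *Fzd5* in replicate 3 and below *Fzd5* and *Fzd7* in replicate 2. It had 6 distal regions of both libraries, against 0 or 1 at each of the other 9. Of 8 co-receptor genes, *Ryk* (41.0 in replicate 3), *Lrp6* (19.3), and *Reck* (12.4) had a region of both libraries at an own end. *Tspan12*, whose product joins the Norrin receptor complex with Fzd4, had none at the ends of its body. It had 7 regions of both libraries in the distal class, of which 1 lay within 1 kb of its RefSeq start, and *Reck* had 8, of which 0 did. Among the receptors of R-spondins and the ligases they inhibit, *Znrf3* (75.9) and *Lgr4* (55.5) had a region of both libraries, and *Lgr5* had no peak.

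Of the secreted or surface antagonists, 3 of 16 (*Kremen1* at 65.1, *Kremen2* at 29.4, and *Wif1* at 12.7 in replicate 3) had a region of both libraries and 13 had no peak, *Dkk1*, *Dkk2*, *Dkk3*, and *Dkk4* among them. The 11 cytoplasmic components with one were *Csnk1a1* (125), *Gsk3b* (119), *Btrc* (78.1), *Apc*, *Gsk3a*, *Ctnnb1*, *Dvl1*, *Nkd1*, *Dvl3*, *Dvl2*, and *Nkd2*. The 5 nuclear factors were *Tcf7l2* (66.4), *Pygo2* (53.4), *Tcf7* (29.96), *Tcf7l1*, and *Bcl9l*. *Lef1* and *Sp5* had no peak at an own end. *Bcl9* had a replicate 3 peak only at its ends, but a region of both libraries within 1 kb of its RefSeq start. The reverse held at *Kremen2* and *Nkd1*, which had a region of both libraries at an own end and no peak within 1 kb of the RefSeq start. Other genes near the ends of the pathway genes were not examined. Of the genes of ligands, R-spondins, and antagonists together, 5 of 39 (12.8%) had a region of both libraries, against 16 of 23 (69.6%) of cytoplasmic and nuclear components and 44.1% of all protein-coding genes.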

How the data were processed

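Isolated mouse LSECs were profiled by H3K27ac ChIP-Seq in 2 libraries, and 2 input libraries were not analysed here. Nothing says whether the libraries came from separate animals. The paper describes tagmentation-assisted fragmentation, the sample records sonication. Per the labels, the authors' processing notes name cutadapt 0.4.4, BWA 0.7.17, Picard 1.67, MACS2 2.0.10, bedtools 2.27.1, and the build mm10, without roles. The authors deposited 1 list of peaks per library, not pooled, with a fold enrichment (a ratio to background), the −log10 of the p-value and of the q-value, and a score that is 10 times the latter cut to a whole number. Whether the inputs entered the calls is not given in the sources used here. The deposited −log10 q-values start at 2.04 (replicate 2) and 2.01 (replicate 3). Read counts were not used here, so the depth is unknown, and the Wilson interval covers a count of peaks only.

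Gene bodies and starts were taken from RefSeq (GRCm38.p6, the build named mm10), and all 87 pathway genes matched by symbol. RefSeq bodies span predicted transcripts. Positions are counted from 1. Sequence of distal regions was not analysed here. The 10 genes, the other lists, and the motifs were chosen with earlier results of these data known, and 2 alternatives after the values were seen. No test was run, since the design has 1 condition. Named are the 10 genes, pathway genes with a region of both libraries at an own end (values for the 3 highest per role), neighbors whose end or body holds such a region, and the markers. *Wnt2b*, *Wnt5b*, *Wnt6*, *Wnt7b*, *Wnt10a*, *Wnt11*, *Tspan12*, *Lgr5*, *Lef1*, *Sp5*, *Bcl9*, *Dkk1*, *Dkk2*, and *Dkk4* were named after their values were seen. Overlap and end calls were tested on simulated data. Alternatives changed the q-value, list length, overlap, windows, gene ends, and libraries. Scripts ran in Python 3.11.15 with matplotlib 3.10.9, scipy 1.17.1, pandas 2.3.3, and numpy 2.4.6.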

Additional observations from a re-analysis of the deposited data

How the results depend on the processing

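No paired analysis was possible because only 1 condition, LSEC H3K27ac, was analysed here, without its inputs. For the 5 counts and shares over genes, 40 alternatives were run, and 10 moved a value by more than its limit (1.5 times for a count, the Wilson interval for the share). When each peak had to cover 50% of the other, the genes with a region of both libraries at an own end went from 4 to 1, the distal regions from 30 to 14, the pathway genes from 33 to 17 of 87, and the overlapping share of replicate 3 peaks from 34.2% to 15.3%. When both lists were trimmed to equal numbers of top peaks, that share was 69.8%. Distal regions numbered 16 with 10 kb on each side and 11 in gene bodies alone, where 5 genes had one in place of 8. These changes follow from smaller windows, fewer peaks, or stricter overlap. Leaving out replicate 3 or replicate 2, the genes with an own-end region were 4 or 7, the distal regions 32 or 98, the genes with a distal region 8 or 10, and the pathway genes 33 or 47. The percentiles of *Wnt2* and *Wnt9b* without replicate 2 were 80.7 and 89.7. Of 90 alternatives for single genes, 14 moved a count (8 higher, all without replicate 2, and 6 lower) and 18 moved a percentile (7 higher and 11 lower). The alternatives chosen after the values were seen gave 4 genes when the RefSeq start was added to the ends and 29 distal regions when regions at these starts were left out. The unknown depth limits what a missing replicate 2 peak can show.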
